A study of Equus caballus with 19 samples.

Results

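Annexin A1 (ANXA1), annexin A2 (ANXA2) and the type 2 interleukin-1 receptor (IL1R2) were followed in the blood of young horses kept under enriched or impoverished conditions. They are 3 of the 799 genes that the arrays name through a RefSeq accession. Every probe that carries the accession of 1 of these genes was taken, whatever its signal, which gave 8 of the 43384 probes: 4 for ANXA1 (NM_001081867), 3 for ANXA2 (NM_001123380) and 1 for IL1R2 (NM_001081816). The animals were 19 prepubertal Welsh foals of about 10 months, weaned and reared together before they were allocated at random. For 12 weeks the 9 control horses (6 males and 3 females), which the labels call impoverished in their social and sensory condition, lived in individual stalls on wood shavings and were taken to an individual paddock on some days of each week. Over the same weeks the 10 EE-treated horses (4 males and 6 females; EE stands for environmental enrichment) spent the day in larger stalls on straw and the rest of the time together at pasture, with varied food, objects, odors and music. Whole venous blood was drawn at the end of treatment into tubes that stabilise RNA, and each horse gave 1 sample and 1 single-color array.

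Annexins are proteins that bind membranes rich in acidic phospholipid when calcium is present. ANXA1 is abundant in neutrophils and monocytes, is induced by glucocorticoids in several cell types and limits inflammation through a formyl peptide receptor, whereas ANXA2 pairs with the S100 protein S100A10 at the cell surface, where the complex helps to activate plasminogen. IL1R2 is a decoy: it binds interleukin-1 without passing the signal on, is carried by neutrophils, monocytes and B cells, and is another target of glucocorticoids. The comparison addresses whether ANXA1 and IL1R2, of this anti-inflammatory, stress-hormone-responsive kind, and ANXA2 beside them differed with the housing of the animals.

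Each spot is brighter the more of its transcript a sample holds. Its signal is given here on the log2 scale after each array was scaled to a 75th percentile of 500, so that 1 unit is a doubling. Depending on the array, 61.2% to 69.6% of its spots exceeded background clearly, and no spot was saturated. Both groups were on each of the 5 slides. Array positions 2 and 4 were used for control horses and 1 and 3 for EE-treated ones (2 for horse475), so that position and group can barely be told apart. Of the marker lists of blood cell types, few genes could be named (2 of 17 for neutrophils and 4 of 9 for monocytes), and all 6 of these were measured in every horse with at least 1 probe. In whole blood, fewer cells of a type and less RNA per cell cannot be told apart.

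All 3 genes were readily measured. Their 8 probes were well above background on 19 of 19 arrays, with no outlier spot among them. The dimmest spot was at least 12.5 times its local background for IL1R2, 45.1 times for ANXA1 and 173 times for ANXA2. Probes bind with different strength, so these ratios and the levels below do not rank the genes against each other. The probes of a gene ordered the horses alike: Pearson's r across the 19 horses was 0.88 to 0.99 between the ANXA1 probes and 0.84 to 0.90 between the ANXA2 probes. The mean of a gene's probes is therefore given as its level. IL1R2 rests on a single probe.

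ANXA1 had about the same mean in both groups, and its highest values came from a pair of EE-treated horses. In the control group the lowest, median and highest levels were 11.78 (horse477), 12.43 and 12.70 (horse650), with a mean of 12.31 ± 0.32 (SD, n = 9). In the EE-treated group they were 11.88 (horse648), 12.22 and 13.04 (horse646), with a mean of 12.30 ± 0.41 (SD, n = 10). The groups overlapped over most of their range. EE-treated horse646 and horse469 (13.04 and 13.01) lay above every control horse, the next EE-treated horse was at 12.39, and control horse477 lay below every EE-treated horse. Across all horses the highest level was 2.38 times the lowest.

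ANXA2 varied least. Control horses ran from 13.38 (horse647) through a median of 13.87 to 14.08 (horse650), with a mean of 13.82 ± 0.24 (SD, n = 9). EE-treated horses ran from 13.52 (horse648) through a median of 13.97 to 14.21 (horse643), with a mean of 13.92 ± 0.24 (SD, n = 10). Most horses of the groups overlapped. EE-treated horse643, horse646 and horse469 were above the highest control horse and control horse647 was below the lowest EE-treated horse, and the whole span was 1.78-fold.

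IL1R2 varied most, and it did so mainly in the control group. Control horses spread from 7.71 (horse474) through a median of 8.70 to 9.92 (horse472), a 4.61-fold span, with a mean of 8.80 ± 0.76 (SD, n = 9). EE-treated horses lay within it, from 8.46 (horse646) through a median of 9.18 to 9.49 (horse648), a 2.05-fold span, with a mean of 9.04 ± 0.36 (SD, n = 10). Control horse472 and horse477 were above all EE-treated horses, and control horse474, horse645 and horse471 were below all of them. The control SD was 2.11 times the EE-treated SD. Of the 24524 probes well above background on every array, 3.48% had a ratio at least as high, a share that describes the arrays and tests nothing.

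**Figure D1:**
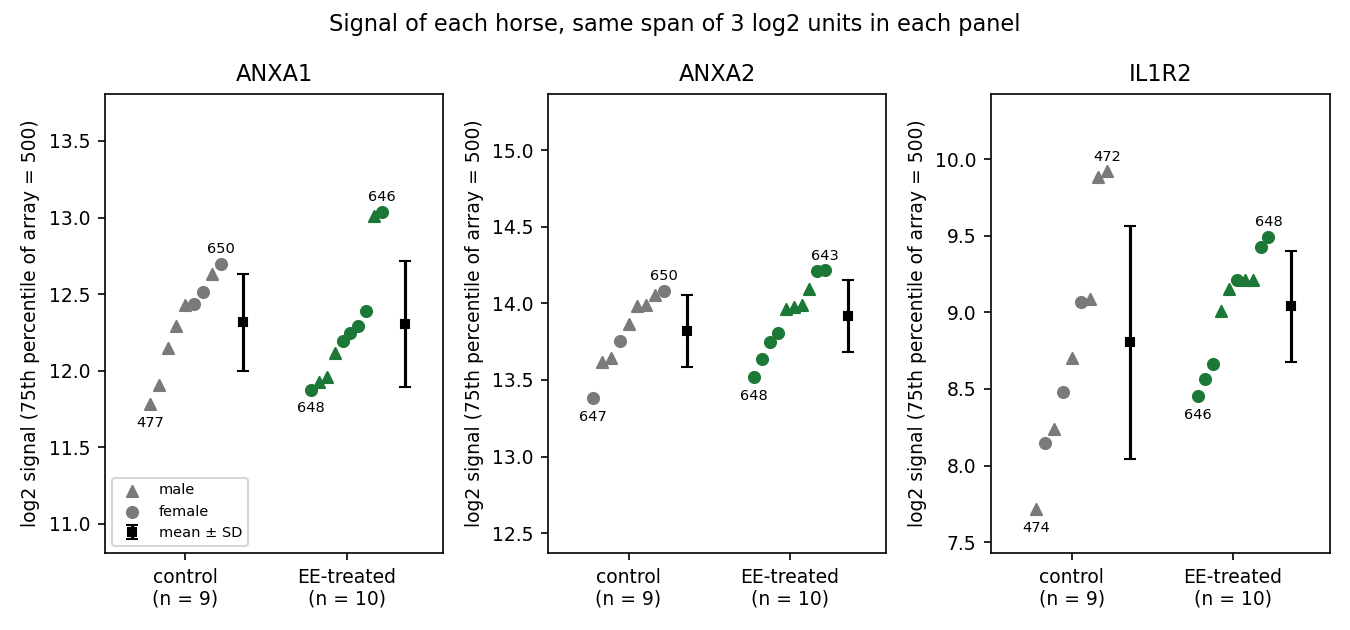
Log2 signal of ANXA1, ANXA2 and IL1R2 (mean of the probes of a gene; 75th percentile of each array set to 500) in each of the 9 control (gray) and 10 EE-treated (green) horses, ordered by level within a group, with triangles for males and circles for females. Black squares and bars are means and SDs, the vertical axes span the same range, the lowest and highest horse of each group are numbered, and the control horses of IL1R2 extend beyond the EE-treated horses at both ends.

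The spread of the probes within groups placed the genes differently among the 24524 probes measured on every array, whose median SD was 0.29. The SD was 0.58 for IL1R2, higher than that of 93.8% of these probes. For the ANXA1 probes it was 0.37 to 0.39, above 71.3% to 75.1% of them. For the ANXA2 probes it was 0.24 to 0.25, above only 35.5% to 39.4%.

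No difference between EE-treated and control horses was detected for any of the 3 genes. With limma, fitted over all probes, 0 of the 8 probes had an unadjusted p under 0.05, against 11.7% of all probes, and 0 passed the limits of the methods (p under 0.005 and a difference of at least 20%), against 1.82%. After Benjamini-Hochberg adjustment 0 of the 8 passed, as did 0% of all probes. The methods' t-test, in its random-variance form, also gave 0 of 8 at an unadjusted p under 0.05. The signal was higher in EE-treated horses for 7 of the 8 probes, and 60.3% of all probes were also higher. With quantile normalization 3 of the 8 were higher, and 48.9% of all probes.

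For ANXA1, the EE-treated minus control difference was 0.02 ± 0.17 (SE) at probes A_69_P000001 and A_69_P000002, 0.01 ± 0.17 at A_69_P026717 and -0.10 ± 0.17 at A_69_P026716, with limma adjusted p of 0.966, 0.962, 0.98 and 0.794. The 95% interval at A_69_P000001 ran from -0.34 to 0.38, that is from 0.79-fold to 1.31-fold. The sign at the first 3 probes turned under quantile normalization and with sex as a covariate. Without EE-treated horse469 or horse646, the A_69_P000001 difference was -0.06 or -0.05.

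For ANXA2, the difference was 0.10 ± 0.12 (SE), 0.13 ± 0.12 and 0.06 ± 0.12 at probes A_69_P000031, A_69_P000032 and A_69_P098211, with limma adjusted p of 0.708, 0.615 and 0.83. The widest reach of the 95% intervals was from -0.19 to 0.39, that is from 0.88-fold to 1.31-fold. The mean of the 3 probes was higher in EE-treated horses on each of the 5 slides, by 0.02 to 0.17. Under quantile normalization A_69_P000031 turned to -0.02, A_69_P000032 was at 0.06 and A_69_P098211 at 0.0058. Without control horse647 the last was at 0.0011.

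For IL1R2, the difference was 0.24 ± 0.26 (SE), a 1.18-fold higher signal in EE-treated horses, with a limma adjusted p of 0.676. Its 95% interval ran from -0.30 to 0.77, or 0.81-fold to 1.70-fold, the widest of the 8 probes. Single control horses moved it: the difference was 0.10 without horse474 and 0.15 without horse645, and 0.38 without horse472 and 0.37 without horse477. Within slides the difference was 1.11 on slide 3 and 0.98 on slide 5, 0.01 on slide 2, and -0.13 and -0.51 on slides 4 and 1. Slides 3 and 5 hold the lowest control horse and another of the 3 low ones, and slide 1 holds a control horse at 9.88.

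**Figure D2:**
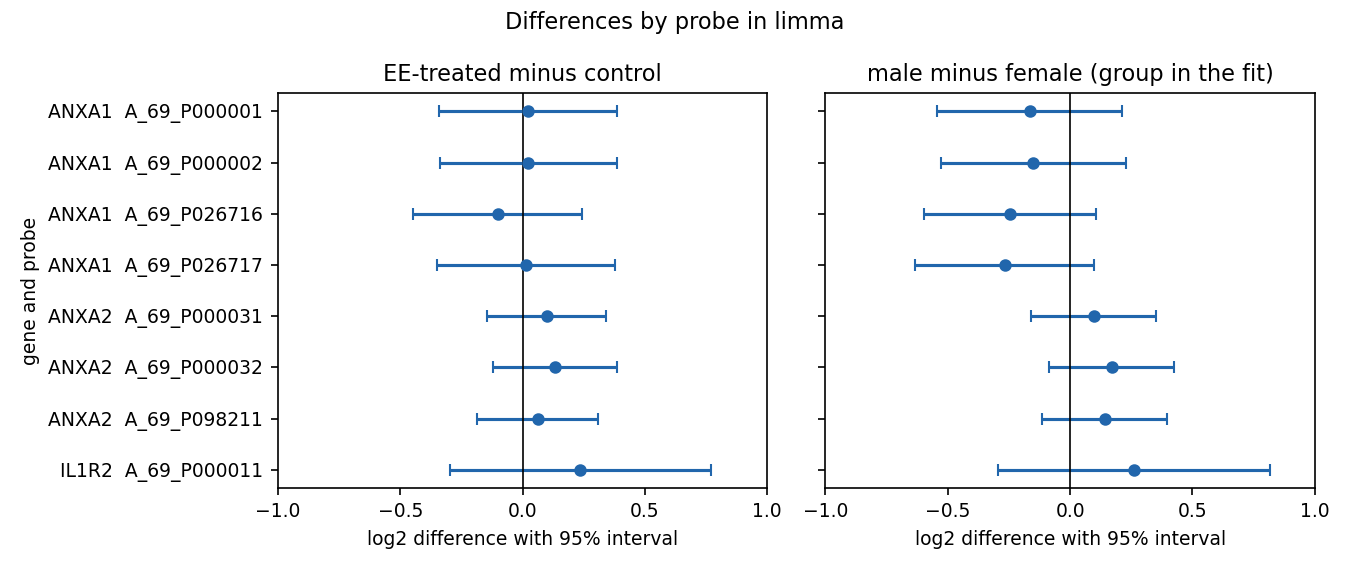
Log2 difference (horizontal axis) at each of the 8 probes for EE-treated minus control horses (left) and male minus female horses with the treatment group in the fit (right), with 95% intervals from limma. All 16 intervals cross 0, and those of IL1R2 are the widest.

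Males and females were not detectably different either, with the treatment group in the fit. In limma 0 of the 8 probes had an unadjusted p under 0.05, against 5.97% of all probes, and 0 passed after adjustment, against 0.053%. The ANXA1 probes were lower in males by the fit, from -0.27 to -0.15, the ANXA2 probes were at 0.10 to 0.17 and IL1R2 was at 0.26, with adjusted p of 0.846 to 0.864. The control females were all in the upper part of their group in ANXA1 (mean 12.55 ± 0.14, SD, n = 3, against 12.20 ± 0.32, n = 6, in control males). The enrichment effect did not detectably differ between the sexes: 0 of the 8 interaction terms had an unadjusted p under 0.05 in limma, against 3.05% of all probes, and the lowest was 0.368.

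The 3 genes were not detectably correlated with each other across the 19 horses. ANXA1 and ANXA2 gave a Pearson's r of 0.27 (permutation p = 0.264, adjusted over the 3 pairs 0.448; 95% interval from -0.21 to 0.64) and a Spearman's rho of 0.22 (permutation p = 0.371, adjusted 0.556). Without the 2 horses farthest from the median of ANXA1, r was -0.04. It was -0.06 among control horses (exact permutation p = 0.873) and 0.52 among EE-treated horses (permutation p = 0.125). This r rests on EE-treated horse646 and horse469, which were high in both annexins.

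ANXA1 and IL1R2 gave an r of -0.25 (permutation p = 0.299, adjusted 0.448; 95% interval from -0.63 to 0.23) and a rho of -0.36 (permutation p = 0.125, adjusted 0.376). The r was -0.30 without the 2 horses farthest from the median of ANXA1, -0.19 among control horses and -0.43 among EE-treated horses. Low ANXA1 went with high IL1R2 in control horse477 and EE-treated horse648, but control horse474 was low in both. Without control horse474, r was -0.47 (permutation p = 0.049, unadjusted). That horse went against the pattern and was 1 of 19 left out in turn, so this p supports no relation. With any other single horse left out, r ran from -0.35 to -0.13. ANXA2 and IL1R2 gave an r of 0.0018 (permutation p = 0.994, adjusted 0.994; 95% interval from -0.45 to 0.46) and a rho of 0.04 (permutation p = 0.873, adjusted 0.873), and r was -0.0061 without the 2 horses farthest from the median of ANXA2. None of the 3 genes detectably tracked the brightness of the array before scaling or its share of spots above background (r from -0.10 to 0.09, lowest permutation p 0.679 of 6). Without the 2 arrays farthest from the median of the measure, r ran from -0.45 (ANXA2 with brightness) to 0.21 (IL1R2 with brightness). These trimmed values were not tested.

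**Figure D3:**
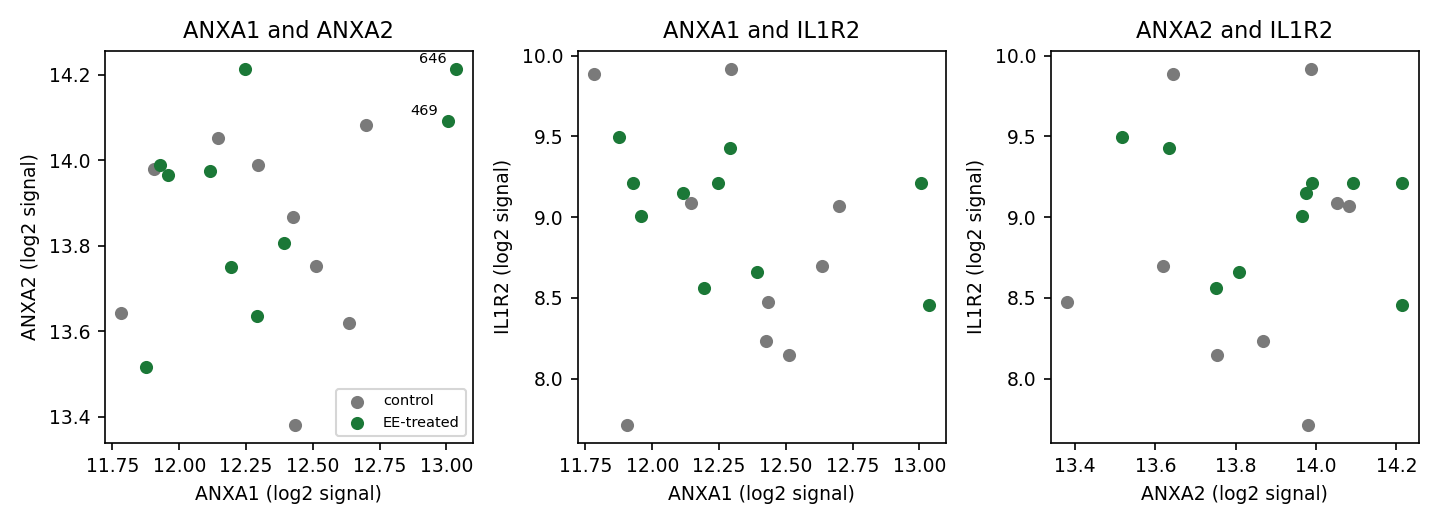
Log2 signal of each pair of genes, with 1 point per horse (9 control in gray, 10 EE-treated in green). The EE-treated horse646 and horse469 stand at the right of the left panel, and no panel shows a relation that passed the permutation test.

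ANXA2 correlated with 2 of the 4 named monocyte genes, CD14 and CD68. ANXA2 also tracked more of the whole array than ANXA1 or IL1R2 did, as given below. Beside the 3 pairs above, the members were set against the 25 other genes of the pathway and marker lists that were measured in all horses, a comparison added after the data were seen, with group means removed and p adjusted over the 75 relations. CD14, the monocyte co-receptor for lipopolysaccharide, ran from 12.50 through a median of 13.51 to 14.10 in control horses and from 13.11 through 13.68 to 14.49 in EE-treated horses. Control horse647 was the lowest in both genes, and the groups overlapped. The r between ANXA2 and CD14 was 0.81 (permutation, adjusted p = 0.0015; rho 0.78, adjusted p = 0.0075), with 0.83 among control horses, 0.79 among EE-treated horses and 0.72 without the 2 horses farthest from the median of ANXA2.

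CD68, a lysosomal glycoprotein of monocytes and macrophages, had an r of 0.66 with ANXA2 (permutation, adjusted p = 0.0492; rho 0.73, adjusted p = 0.0182) and 0.65 without the 2 farthest horses. The other monocyte markers, ITGAX (an integrin chain) and CCR2 (a chemokine receptor), had r of 0.48 and 0.47 and did not pass (adjusted p = 0.268 for both), and both r were 0.16 without the 2 farthest horses. ALOX5AP, which presents arachidonic acid to 5-lipoxygenase, passed by rank (rho 0.77, adjusted p = 0.0075) but not by Pearson's r (0.56, adjusted p = 0.159). The mean log2 level of the 4 monocyte genes ran from 7.35 to 8.58 in control and from 7.72 to 8.86 in EE-treated horses. Its part in the ANXA2 level was not tested. Genes of other blood cells did not pass with ANXA2 either, but the r of FCER1A was above those of ITGAX and CCR2. The r was 0.59 with FCER1A, a chain of the high-affinity IgE receptor of basophils (permutation, adjusted p = 0.158), and 0.34 without the 2 farthest horses. By rank FCER1A had a rho of 0.52 (permutation, adjusted p = 0.286). The r of ANXA2 was 0.43 with MMP9, 0.12 with LTF, 0.40 with HBA2 and 0.44 with HBB. Without the 2 farthest horses these r were 0.43, -0.17, 0.42 and 0.49. S100A10, the partner protein of ANXA2, had an r of 0.49 (permutation, adjusted p = 0.268), and of 0.61 without the 2 farthest horses.

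Among the 459 named genes measured in all horses, those with the pattern most like ANXA2 (Pearson's r over 19 horses, group means removed, a description without a test) were CD14 (0.81), CAP1 (0.80), ANG (0.80), PYGL (0.80) and GLI1 (0.77). CAP1 binds actin, ANG is the ribonuclease angiogenin, PYGL is a glycogen phosphorylase, and GLI1 is a transcription factor of hedgehog signaling. The r of each was at least 0.69 within both groups. ANXA2 also tracked more of the array than the other 2 genes did. With ANXA2, 15.3% of the probes measured on every array had an r beyond 0.5 in either direction. The share was 4.06% for ANXA1 and 1.69% for IL1R2. Of the list genes, CD14 (0.81) and CD68 (0.66) were beyond 0.5 with ANXA2. So were ALOX5AP (0.56) and FCER1A (0.59), which are not in the monocyte list. Whether monocyte genes tracked ANXA2 more than the array at large did was not tested.

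ANXA1 had another set of like genes, among them IFI27 (0.75), CASP1 (0.72), CXCL10 (0.66) and SOD2 (0.63). IFI27 is induced by interferon, CASP1 is the protease that matures interleukin-1 beta, CXCL10 is a chemokine induced by interferon, and SOD2 is the mitochondrial superoxide dismutase. Within the EE-treated group r was 0.80 to 0.93 for these 4 genes, and within the control group 0.10 to 0.44. Without the 2 horses farthest from the median of ANXA1 it was 0.34 to 0.49.

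CASP1 was also among the 75 relations tested. It passed by Pearson's r (0.72, permutation, adjusted p = 0.0229) but not by rank (rho 0.55, adjusted p = 0.286), and r was 0.44 without the 2 farthest horses (permutation p = 0.0776, unadjusted). The CASP1 level was 12.06 in horse646 and 12.56 in horse469, whereas the highest control horse was at 11.74. The relation rests on this pair of horses, which were the highest of all 19 in both genes. No other gene of the lists passed with ANXA1: r with MMP9 was 0.0014, and with LTF -0.30.

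**Figure D4:**
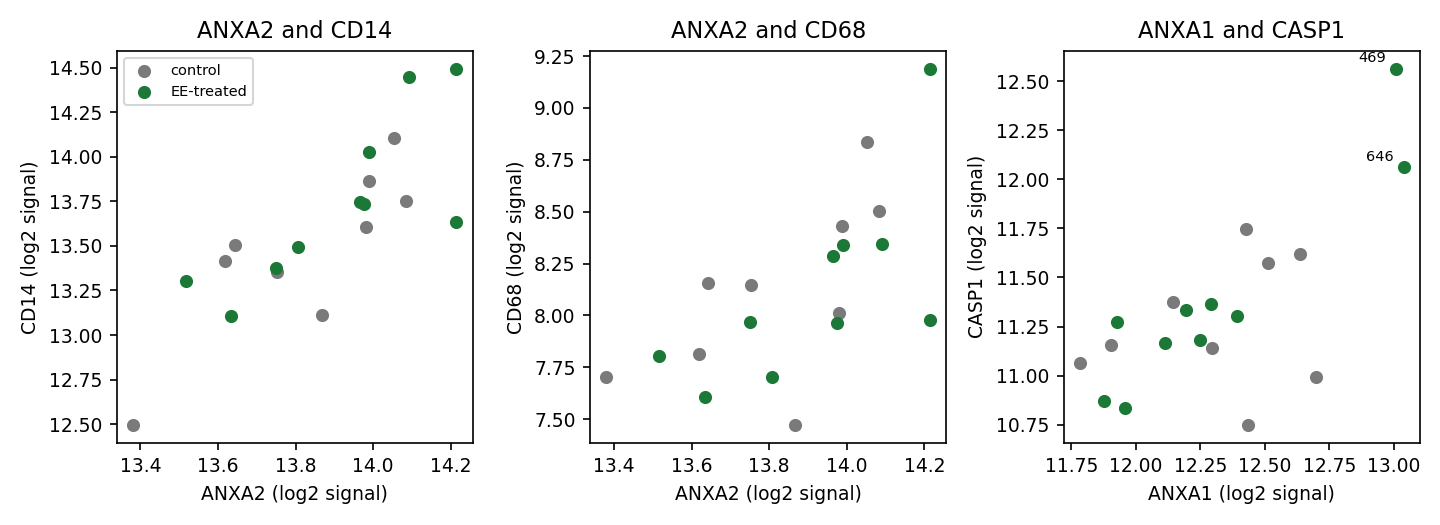
Log2 signal of ANXA2 against CD14 and CD68, and of ANXA1 against CASP1, with 1 point per horse (9 control in gray, 10 EE-treated in green). The points of ANXA2 and CD14 form a band shared by both groups, while horse469 and horse646 stand alone at the top right for ANXA1 and CASP1.

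IL1R2 had weaker company. Its most similar named genes were CARMIL1 (0.59), MHCX1 (0.55), TAB3 (0.52), ANKHD1 (0.50) and PRKAA1 (0.49), of which CARMIL1 regulates the capping of actin filaments, TAB3 is an adaptor of interleukin-1 signaling and PRKAA1 is a catalytic subunit of the AMP-activated kinase. TAB3 had an r of 0.76 among control and -0.06 among EE-treated horses. None of the 25 list genes passed with IL1R2. The neutrophil gene MMP9 came nearest with an r of 0.47 (rho 0.53, both adjusted p above 0.26), 0.57 among control and 0.06 among EE-treated horses. The r with CD14 was 0.16 and with LTF 0.30.

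The surrounding pathways were read from 5 lists, of annexins with S100 partners, of receptors and lipid mediators tied to annexin A1, of interleukin-1 ligands, of interleukin-1 receptors with their signaling, and of glucocorticoid-responsive genes. Beyond the 3 members, 15 of their 77 genes could be named (19.5%), with 51 probes. After adjustment 0 of the 51 passed in limma (lowest adjusted p 0.278). At an unadjusted p under 0.05 there were 11 (21.6%, against 11.7% of all probes), 6 higher and 5 lower in EE-treated horses, from 5 genes. Probes of 1 gene share its transcript, so these are not 11 separate results.

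In the annexin list 3 of 4 genes were higher in EE-treated horses, with a median difference of 0.15 (0.05 with quantile normalization), against 0.06 over all probes. The S100A10 probes stood at 0.19 ± 0.09 and 0.21 ± 0.09 (SE; unadjusted p = 0.0413 and 0.0276 in limma, adjusted p = 0.41 and 0.368), and the mean was 0.08 with quantile normalization. The S100A6 probes stood at 0.21 to 0.22 (lowest unadjusted p in limma 0.0576), with a mean of 0.11 after quantile normalization. Of the receptor and lipid mediator list 4 genes were named, all 4 with a mean difference above 0 (median 0.44). The cytosolic phospholipase PLA2G4A stood at 0.71 ± 0.33 and 0.35 ± 0.17, with both probes at an unadjusted p under 0.05 in limma (adjusted p = 0.414 and 0.427). For ALOX5AP 1 of 5 probes was under 0.05 (mean of the probes 0.46), and for the cyclooxygenase PTGS2 1 of 3 (mean 0.42, and 0.24 with normexp). The PTGS2 mean includes a probe at 0.52 that was well above background on 2 arrays only. Its probes measured on all 19 arrays were at 0.50 and 0.25. The probes of the prostaglandin synthase PTGES were well above background on at most 4 arrays, and their mean changed sign with the normalization.

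On the interleukin-1 side, 3 of 11 ligand genes and 4 of 24 receptor and signaling genes, IL1R2 included, were named, and 0 had a probe at an unadjusted p under 0.05 in limma. The median difference was 0.33 for the ligands (0.15 with quantile normalization, 0.12 without EE-treated horse473 and 0.52 without control horse650) and 0.18 for the receptors (0.11 without control horse474 and 0.12 without EE-treated horse469). The ligand median was in each case the value of IL1A, whose probes were near background. IL1RN, the receptor antagonist, is the other natural brake on interleukin-1. Of its 10 probes 1 was at 0.24 ± 0.15 (SE) and the other 9 were between -0.08 and 0.08. The first was by far the brightest, with mean levels of 12.67 in control and 12.91 in EE-treated horses. Group means of the other 9 were 5.77 to 6.81. IL18 stood at 0.67 ± 0.34 (unadjusted p = 0.0618, adjusted p = 0.449 in limma), and at 0.40 without EE-treated horse469. IL1A was barely seen, with its 3 probes well above background on at most 2 of 19 arrays. The signaling receptor IL1R1, which neighbors IL1R2 with no protein-coding gene between them in the TB-T2T assembly, was well above background on 10 arrays only, and its difference of 0.66 ± 0.40 (SE; adjusted p = 0.52 in limma) was 0.09 with another background correction (normexp). CASP1 stood at 0.13 ± 0.20 (-0.0020 without EE-treated horse469) and the adaptor TAB2 at 0.01 ± 0.10.

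Of the glucocorticoid-responsive list 5 of 20 genes were named, ANXA1 and IL1R2 among them, 1 higher and 4 lower in EE-treated horses, with a median of -0.05. With only the brightest probe of each gene, 3 were higher and 2 lower, with a median of 0.02, since ANXA1 counts as lower by a mean of -0.01 though 3 of its 4 probes were higher. DDIT4, an inhibitor of mTOR complex signaling that glucocorticoids induce, was lower at all 5 probes, by -0.35 to -0.27 (unadjusted p from 0.00614 to 0.0421 and adjusted p from 0.278 to 0.41 in limma). The glucocorticoid receptor NR3C1 stood at -0.03 ± 0.09 and -0.08 ± 0.09. The r of DDIT4 was -0.14 with ANXA1, 0.16 with ANXA2 and 0.41 with IL1R2 (adjusted p = 0.787, 0.787 and 0.37). Of the 39 probes of the 17 named marker genes, 7 were at an unadjusted p under 0.05 in limma (17.9%, against 11.7% of all probes), all 7 higher in EE-treated horses, and 0 passed after adjustment. They were 5 of 6 probes of the B cell gene FCER2 (mean of the probes 0.89, lowest adjusted p 0.117), MMP9 at 0.59 ± 0.23 (SE; unadjusted p = 0.02, adjusted p = 0.342), and 1 of 5 probes of SLC4A1, the anion exchanger of red cells, at 0.58 ± 0.28 (unadjusted p = 0.0489, adjusted p = 0.426), which was well above background on 1 array only. The FCER2 mean includes a probe at 0.12 that was well above background on 0 arrays. Its other 5 probes, measured on all 19 arrays, were at 0.94 to 1.10. The other named neutrophil gene, LTF, stood at -0.27 ± 0.50 (SE; 0.03 without control horse477), and 0 of the 11 monocyte probes were under 0.05.

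**Figure D5:**
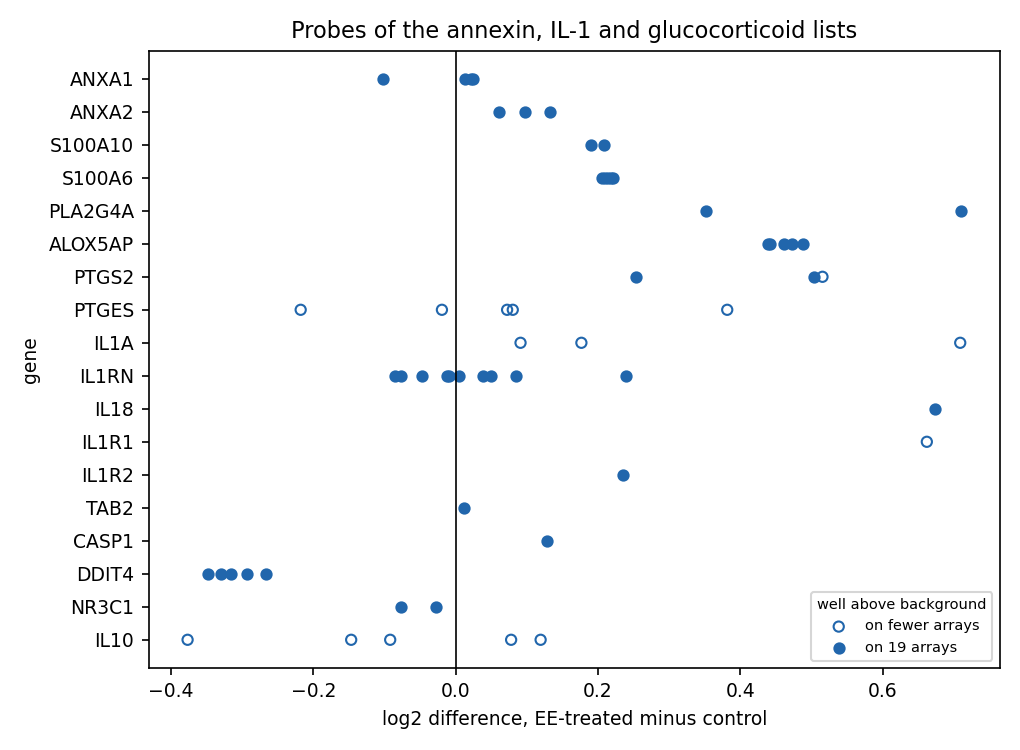
Log2 difference between EE-treated and control horses (horizontal axis) at each probe of the named genes of the 5 pathway lists, 1 row per gene. Filled circles were well above background on 19 arrays and open circles on fewer, DDIT4 lies left of 0 at all 5 probes, and S100A10, S100A6, PLA2G4A, ALOX5AP and IL18 lie right of it.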

How the data were processed

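The authors scanned the arrays, extracted the spots with Agilent Feature Extraction (version 10.7.3.1 per the file headers, 9.1 per the submitters' processing notes) and deposited background-corrected spot intensity for every array, with marks for outliers and background. A deposited table of log2 values covers the same arrays and served here as an alternative. No genome build is named, so no coordinates are given. RefSeq's TB-T2T table, used for names and gene order, gave a symbol to 1781 of the 3275 probes that have such an accession.

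Signals of the 43803 spots that are not controls were brought, array by array, to a 75th percentile of 500, and log2 was taken. Outlier spots were left out and spots of a probe averaged. Groups, taken from the labels, were compared with limma 3.58.1 in R 4.3.3 over 43384 probes, without covariates, as in the methods, with Benjamini-Hochberg adjustment. Sex was tested with the group in the fit. The fit was tested on simulated data. Correlations used 100000 permutations (exact for the control group) in Python 3.11.15 with scipy 1.17.1. Intervals are 95%. Nothing beyond horse numbers says how samples were replicated, and each horse was taken as 1 replicate. The number of arrays limits the precision.

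Members, gene lists and tests were chosen with earlier results of these data known. Named were all member probes, list genes with an unadjusted p under 0.05, interleukin-1 ligands and receptors, and the 5 named genes most correlated with each member, of which 1 is not reported here. Genes outside that rule were named from the lists or the list correlations after their values were seen. Alternatives were other normalizations and background corrections (normexp with an offset of 50, leaving out 30 spots whose local background was over 10 times the median), a filter on dim probes, outlier spots kept, the log2 table, slide, scan, sex and brightness, the methods' t-test (random variance), and each horse left out.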

Additional observations from a re-analysis of the deposited data

How the results depend on the processing

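No probe of the members had an adjusted p under 0.05 under any of the 14 alternatives or without any of the 19 horses, in limma or the methods' t-test. The signs of small differences did change. With quantile normalization the EE-treated minus control difference was -0.060 and -0.061 at ANXA1 probes A_69_P000001 and A_69_P000002, -0.0093 at A_69_P026717 and -0.016 at ANXA2 probe A_69_P000031. With normexp it was -0.079 and -0.039 at the first 2 ANXA1 probes and -0.024 at A_69_P000031. With slide as a block A_69_P000001 was at -0.0049, and in the arrays of scan 1 (slides 1 to 4) A_69_P026717 was at -0.011. With sex as a covariate A_69_P000001, A_69_P000002 and A_69_P026717 were at -0.022, -0.016 and -0.058, and with sex and slide at -0.119, -0.094 and -0.108. With 1 horse left out they ran from -0.061 to 0.075, -0.058 to 0.074 and -0.076 to 0.079. The correlation of ANXA1 with ANXA2 was -0.064 in control horses and -0.044 without the 2 farthest horses (0.117 to 0.36 with 1 horse left out). That of ANXA1 with IL1R2 ran from -0.47 (without control horse474) to -0.13. That of ANXA2 with IL1R2 was -0.044 with group means removed, -0.32 in EE-treated horses, -0.119 with group and sex, -0.054 with group and slide and -0.038 with group and brightness removed, -0.043 after quantile normalization, -0.037 after centring on the median, -0.0062 and -0.0072 with A_69_P000031 and A_69_P000032 alone, -0.0061 without the 2 farthest horses, and from -0.11 to 0.107 with 1 horse left out. For these changes the cause was not tested. The correlation of ANXA2 with CD14 was 0.72 to 0.85 and with CD68 0.60 to 0.82 over 8 alternatives, and 0.74 to 0.87 and 0.62 to 0.74 with 1 horse left out. Over the same alternatives ANXA1 with CASP1 was 0.44 to 0.85, and ANXA2 with ALOX5AP 0.41 to 0.77 (0.46 without control horse647, the only horse whose removal took its unadjusted permutation p above 0.05). Over all probes, 789 passed the limits of the methods, against 491 with normexp and 457 with brightness as a covariate, and 0 passed after adjustment, against 40 with normexp and 2 with the filter on dim probes. No paired analysis was possible because the groups share no horse. Background did not limit the members, all well above it, whereas IL1A, IL1R1, IL10 and PTGES were near it. At the bright end, ANXA2 probe A_69_P000031 had a signal scaled up from the scan at lower gain on 18 of 19 arrays, and A_69_P000032 on 3. Whether this affected their differences was not tested.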

Other observations

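The probes most correlated with the members over all 19 horses, with group means removed, had no name through a RefSeq accession. They were singled out after their values were seen. Probe Oligo-168 had an r of 0.99 with IL1R2 and showed the same wide control group, with an SD of 0.76 among control and 0.32 among EE-treated horses and an EE-treated minus control difference of 0.25. The next probe reached 0.74. Probe Oligo-98 had an r of 0.93 with ANXA2 and a difference of 0.11. The highest r with ANXA1 was 0.86, at probe A_69_P095827. The files used here do not pair these probes with a gene.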
